A study of Zea mays with 18 samples.

Results

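A set of 27 maize genes turned its genotype difference around between the first and the second of 3 anther stages. Their transcripts were scarcer in anthers of ZmCCT10 transgenic plants than in control anthers at S3-4, and more abundant at S5-6. The 27 genes were picked out of the 45578 genes in the deposited count tables by a rule on mean CPM (the raw count scaled to a library total of 1000000) with 0.1 CPM added to both genotypes. The ratio of ZmCCT(+) to ZmCCT(-) had to be 1/3 or less at S3-4 and 3 or more at S5-6. The mean also had to be at least 2 CPM in S3-4 ZmCCT(-) and in S5-6 ZmCCT(+). All values of S3-4 and S5-6 were therefore used to choose the genes and are given as a description with no test. The third stage, S7, was not used, and its genotype difference was tested.

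ZmCCT(+) are plants with an active ZmCCT10 transgene and ZmCCT(-) are non-transgenic controls. The tissue is the whole anther, and each of the 6 groups of stage and genotype has 3 libraries, 18 in all. The labels do not give the promoter of the transgene, the number of transgenic lines, the inbred background, the day length or the number of plants behind a library. The p-values measure the spread between libraries, which may be technical.

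ZmCCT10 encodes a protein with a CCT domain and is known as a repressor of flowering of maize in long days. A maize anther lobe forms somatic wall layers around the cells that enter meiosis, and its innermost wall layer, the tapetum, feeds the developing pollen. Many anther genes are active for a short time in one of these cell types, and a library of whole anthers mixes them. In such bulk RNA, fewer cells of a type and less RNA per cell cannot be told apart.

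The files and the gene table used here pair 0 of the 27 identifiers with a gene name, so no function is given for any of them, and they are described by identifier, position and level. The same holds for ZmCCT10 itself and for markers of the tapetum, meiocytes, green floral tissue and pollen, whose levels were not analysed here. Total counts per library ran from 14846974 to 23652182. The 3 S3-4 ZmCCT(+) libraries stood apart in composition, with TMM scaling factors (which correct library totals for composition) from 0.845 to 0.854 against 0.961 to 1.075 in the other 15. The choice of the 27 genes rests on these libraries, while the S7 difference was also tested in a fit that contained no S3-4 library. With library sizes corrected by these factors, 25 of the 27 genes still met the rule and no other gene did.

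**Figure D1:**
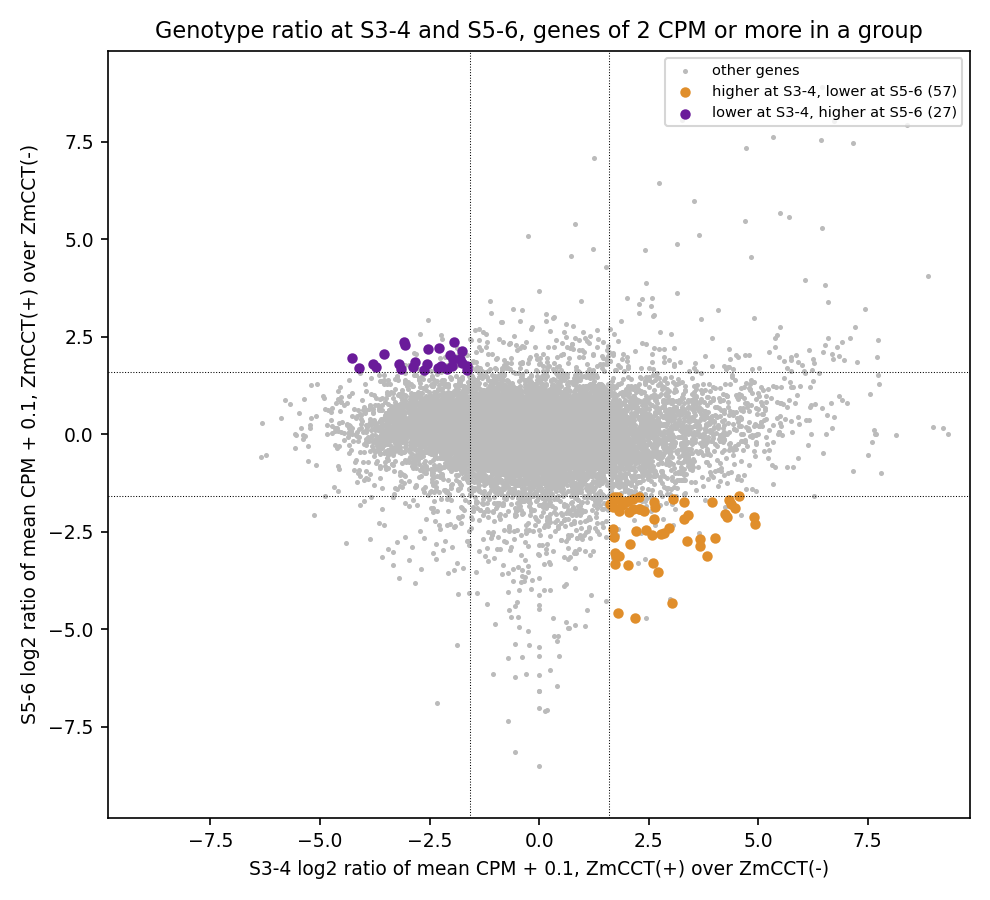
Log2 ratio of mean CPM + 0.1 between ZmCCT(+) and ZmCCT(-) at S3-4 (horizontal) and S5-6 (vertical), 1 point per gene that reached 2 CPM in at least 1 group; dotted lines mark ratios of 1/3 and 3. The 27 genes (purple) lie at the upper left just beyond the limits of the S5-6 ratio, at 3.11-fold to 5.13-fold, and 57 genes with the opposite behaviour (orange) lie at the lower right.

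At S3-4 the 27 genes were 3.13-fold to 19.5-fold lower in ZmCCT(+), with a median of 5.80-fold. At S5-6 they were 3.11-fold to 5.13-fold higher, with a median of 3.52-fold. Of all listed genes 6.32% met the S3-4 part of the rule and 0.693% the S5-6 part. The 27 genes make up 0.937% of the 2881 genes lower at S3-4 and 8.54% of the 316 genes higher at S5-6. Summed over the 27 genes, the S3-4 libraries held 201, 205 and 201 CPM in ZmCCT(-) and 29.7, 33.3 and 29.1 CPM in ZmCCT(+). At S5-6 the sums were 406, 412 and 395 CPM in ZmCCT(-) and about 1440, 1460 and 1430 CPM in ZmCCT(+), so the libraries of a group lay close together. The low S3-4 ZmCCT(+) values rest on few reads, with 10 counts or fewer over the 3 libraries in 3 of the 27 genes.

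Genes near the limits differed little from those outside. Zm00001d043973 was nearest to both ratio limits, at 3.13-fold lower at S3-4 and 3.11-fold higher at S5-6, followed by Zm00001d016031 at S3-4 (3.14-fold lower) and Zm00001d033421 at S5-6 (3.14-fold higher). Zm00001d045535 and Zm00001d010813 missed the S3-4 limit, at 2.98-fold and 2.89-fold lower, and Zm00001d048703 and Zm00001d053684 missed the S5-6 limit, at 2.97-fold and 2.96-fold higher. Another 25 genes met both ratios but had less than 2 CPM in S3-4 ZmCCT(-).

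In control anthers most of the transcripts were more abundant at each later stage. The median over the 27 genes of the mean level was 5.27 CPM at S3-4, 9.91 CPM at S5-6 and 18.2 CPM at S7. The S5-6 mean was above the S3-4 mean in 22 of 27 genes (62.6% of tested genes), and the S7 mean above the S5-6 mean in 26 of 27 (54.6% of tested genes). With library sizes corrected by the TMM factors these counts were 20 and 26, and the shares of tested genes were not computed. In ZmCCT(+) the course was a peak, with medians of 1.003, 37.7 and 11.96 CPM at the 3 stages. The S5-6 level in ZmCCT(+) was 9.73-fold to 133-fold above its S3-4 level (median 43.5-fold) and 1.57-fold to 7.53-fold above its S7 level (median 3.47-fold). These steps contain libraries that chose the genes and are given without a test.

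Across the 6 groups the order of levels was much the same from gene to gene. In 27 of 27 genes each S3-4 ZmCCT(+) library was below each of the other 15, and in 26 of 27 each S5-6 ZmCCT(+) library was above each of the other 15. Over all tested genes the shares were 36.3% and 17.3%. The rule used both of these groups and asked for low values in the one and high values in the other, so these counts describe the choice. S3-4 ZmCCT(-) was second lowest in 21 genes (30.8% of tested genes) and S7 ZmCCT(-) second highest in 25 (23.0% of tested genes). The choice of the genes also bears on these second places, so the shares of tested genes are not a like background. S7 ZmCCT(+) and S5-6 ZmCCT(-) had similar levels: the sums over the 27 genes were 392.5 ± 7.16 and 404.4 ± 8.39 CPM (SD, n = 3), and 21 of the 27 genes differed by at most 1.5-fold between these groups, with a median ratio of 0.984 and a range of 0.547 to 1.98. Of all tested genes 82.0% did so, so this closeness is common. The correlation of a gene's log2 CPM over the 18 libraries with the median of the other 26 genes was between 0.837 and 0.997 in 26 genes and 0.486 in Zm00001d008799. This correlation describes genes that were chosen on 12 of these 18 libraries.

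**Figure D2:**
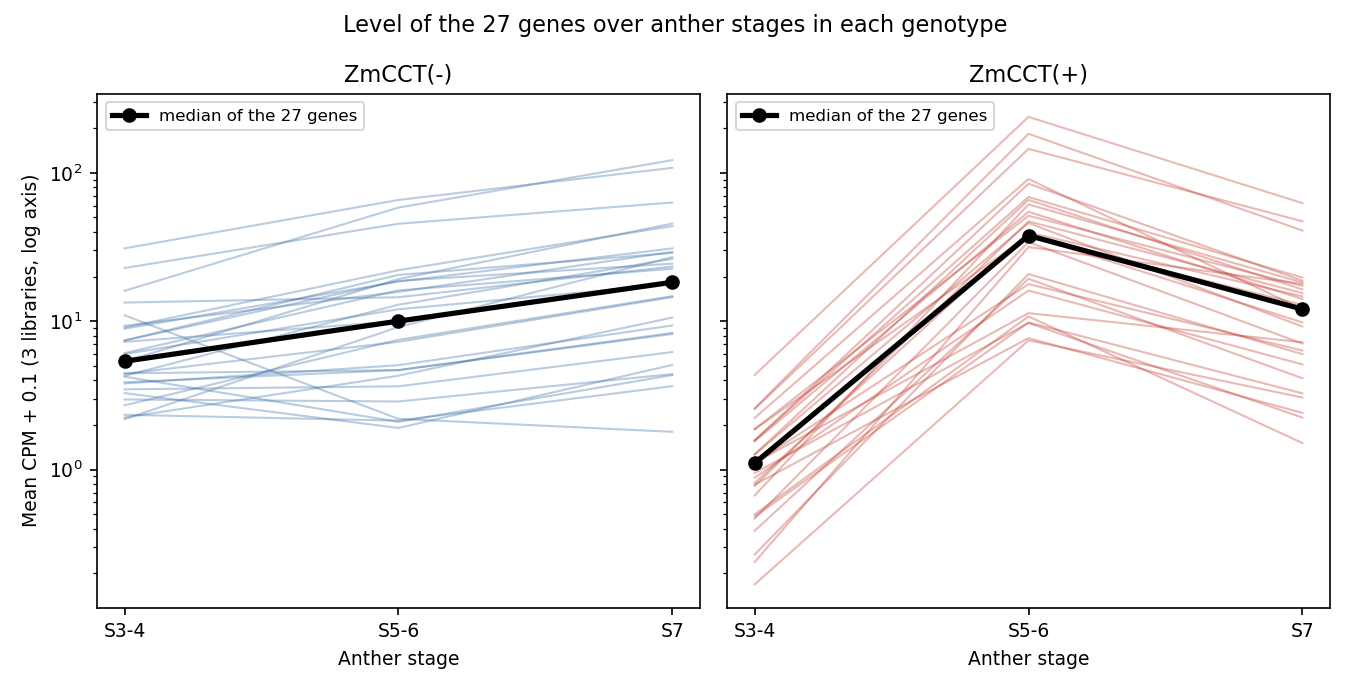
Mean CPM + 0.1 of 3 libraries (log axis) at the 3 stages, 1 line per gene, in ZmCCT(-) on the left and ZmCCT(+) on the right; the black line is the median of the 27 genes. Control levels climb to a median of 18.2 CPM at S7, while ZmCCT(+) levels start at a median of 1.003 CPM, peak at 37.7 CPM at S5-6 and are at 11.96 CPM at S7.

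The gene with the highest CPM in both S3-4 ZmCCT(-) and S5-6 ZmCCT(+) was Zm00001d032261, on chromosome 1 at 219333374 to 219346185. In ZmCCT(-) its CPM values were 29.98, 30.2 and 32.4 at S3-4, 62.7, 67.1 and 66.8 at S5-6 and 108.6, 108.5 and 106.7 at S7. In ZmCCT(+) they were 4.35, 4.33 and 4.04 at S3-4, 233, 238 and 243 at S5-6 and 62.5, 59.2 and 65.5 at S7. The genotypes did not overlap at any stage, and the order turned around at S5-6 and back at S7. The rule chose the gene on its S3-4 and S5-6 values. At S7 the gene was 1.77-fold lower in ZmCCT(+) (log2 -0.82 ± 0.04 SE, edgeR adjusted p = 1.65e-31).

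Zm00001d033421 (chromosome 1, 262588025 to 262589296) and Zm00001d022390 (chromosome 7, 176616853 to 176618205) had the lowest fitted S7 fold changes. The second place is not distinct from the third, since Zm00001d033421 (log2 -1.61) and Zm00001d012505 (log2 -1.59 ± 0.22 SE) differed by less than the error and changed places without S7 ZmCCT(+) replicate 2 (-1.62 and -1.80) or ZmCCT(-) replicate 2 (-1.61 and -1.76). Zm00001d033421 had 14.4, 17.8 and 15.5 CPM in S3-4 ZmCCT(-) and 2.77, 2.76 and 1.94 CPM in S3-4 ZmCCT(+). Its S5-6 values were 57.6, 56.9 and 60.1 CPM in ZmCCT(-) and 186, 183 and 179.8 CPM in ZmCCT(+). At S7 the controls went on to 121, 120.6 and 123.5 CPM while ZmCCT(+) was at 39.3, 41.9 and 41.0 CPM. The S7 groups were far apart, a 3.04-fold difference (log2 -1.61 ± 0.05 SE, edgeR adjusted p = 1.48e-48). Per unit of length this gene was also the highest of the 27 in S5-6 ZmCCT(+), at a mean of 258 TPM, against 109 TPM for Zm00001d032261.

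Zm00001d022390 was balanced between the first 2 stages, at 4.07-fold lower and then 4.12-fold higher in ZmCCT(+). Its CPM was 7.72, 9.97 and 9.20 in S3-4 ZmCCT(-) against 1.92, 2.93 and 1.53 in ZmCCT(+). At S5-6 it was 22.95, 23.1 and 19.9 against 91.1, 94.5 and 86.7. By S7 the ZmCCT(+) libraries were at 10.8, 13.6 and 11.4 CPM, below the 42.9, 42.5 and 45.6 CPM of the controls and also below the S5-6 controls. The S7 difference was 3.69-fold (log2 -1.89 ± 0.08 SE, edgeR adjusted p = 1.06e-28), the largest of the 27 genes in this fit.

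Ranked by the smaller of its 2 ratios, the widest turn belonged to Zm00001d012505 (chromosome 8, 175577410 to 175578506), the one gene that stayed in the set when both ratio limits were set to 5. It had 4.42, 4.65 and 3.33 CPM in S3-4 ZmCCT(-) and 0.113, 0.675 and 0.409 CPM in ZmCCT(+), where the 3 libraries together held 22 counts. At S5-6 the values were 1.86, 2.27 and 1.86 CPM in ZmCCT(-) and 10.7, 10.3 and 10.95 CPM in ZmCCT(+), 5.13-fold higher. The S7 values were 4.35, 3.25 and 5.11 CPM in ZmCCT(-) and 1.35, 1.78 and 1.11 CPM in ZmCCT(+), with no overlap (log2 -1.59 ± 0.22 SE, edgeR adjusted p = 2.20e-09). Unlike most of the set, its control level was lower at S5-6 than at S3-4.

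Zm00001d053156 (chromosome 4, 216943521 to 216945053), Zm00001d012320 (chromosome 8, 172365657 to 172369913) and Zm00001d021883 (chromosome 7, 165344079 to 165346378) followed among the genes with the widest turn in both directions. Zm00001d053156 had 1.68, 2.15 and 2.60 CPM in S3-4 ZmCCT(-) and 0.226, 0.225 and 0.0511 CPM in ZmCCT(+), then 4.84, 3.95 and 3.79 against 19.0, 19.9 and 23.2 CPM at S5-6. Zm00001d012320 went from 2.13, 2.32 and 3.38 against 0.508, 0.338 and 0.256 CPM to 7.69, 7.03 and 7.45 against 35.9, 31.96 and 34.1 CPM, with ZmCCT(+) second in each comparison. In both genes the genotypes did not overlap at either stage, but the rule chose the genes on these values. Zm00001d021883 had nearly the same control level at the 2 stages, at 4.70, 4.31 and 4.06 CPM and then 3.94, 4.71 and 5.09 CPM, while ZmCCT(+) went from 0.282, 0.169 and 0.409 CPM to 19.1, 19.9 and 18.7 CPM. At S7 these 3 genes were lower in ZmCCT(+), with log2 fold changes of -0.85 ± 0.13, -1.12 ± 0.11 and -1.04 ± 0.14 (SE) and edgeR adjusted p-values of 2.99e-08, 1.33e-14 and 3.51e-10.

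Zm00001d030614 (chromosome 1, 148687296 to 148692171) and Zm00001d002004 (chromosome 2, 4177227 to 4180187) were chosen for their S3-4 control level. Zm00001d030614 had 22.0, 23.3 and 22.8 CPM in S3-4 ZmCCT(-) and 2.77, 2.31 and 2.30 CPM in ZmCCT(+), and at S5-6 46.5, 45.9 and 43.4 CPM against 145, 144 and 146 CPM. Its S7 levels came close to each other without overlap, at 63.5, 62.7 and 62.7 CPM in ZmCCT(-) and 47.5, 45.2 and 48.4 CPM in ZmCCT(+) (log2 -0.45 ± 0.05 SE, edgeR adjusted p = 2.59e-14). Zm00001d002004 had one of the deepest S3-4 differences, 17.2-fold, with 13.6, 14.0 and 12.2 CPM in ZmCCT(-) and 0.508, 0.956 and 0.562 CPM in ZmCCT(+). At S7 it was at 21.6, 23.3 and 24.9 CPM in ZmCCT(-) and 15.9, 13.7 and 16.5 CPM in ZmCCT(+) (log2 -0.64 ± 0.08 SE, edgeR adjusted p = 1.24e-10). The S7 calls of both genes were lost when a spread of 20% between replicates was assumed (adjusted p = 0.245 and 0.0702 by edgeR's likelihood ratio test).

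At S7 the difference between genotypes had turned back for most of the 27 genes. All 27 passed the filter on low counts, and 23 of them were lower in ZmCCT(+) at an edgeR adjusted p below 0.05, 85.2%, where 30.4% of the 24694 tested genes were lower. None was called higher, and none had an unadjusted p below 0.05 in that direction either, while 24.1% of tested genes were called higher. The DESeq2 test gave 23 lower and 0 higher (26.0% of tested genes lower), and a fit of the 6 S7 libraries alone gave 23 and 0 (29.0% of its tested genes lower). The median log2 fold change at S7 was -0.79 in the set and -0.04 over all tested genes. Summed over the 27 genes, the S7 level was 719.7 ± 11.3 CPM (SD, n = 3) in ZmCCT(-) and 392.5 ± 7.16 CPM in ZmCCT(+).

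The S7 differences varied in size among the 27 genes. The log2 fold changes ran from -1.89 to 0.40, and 8 of the 27 genes (29.6%) were called and at least 2-fold lower, against 5.73% of tested genes. That share was 24.2% among genes that met only the S5-6 part of the rule and 8.58% among those that met only the S3-4 part. Among genes with the opposite turn it was 21.1%, and these differences were not tested. The CPM of all 3 ZmCCT(+) libraries lay below that of all 3 controls in 22 genes, or 81.5%, against 30.5% of tested genes, and above it in 1 gene against 29.0%. The balance of S7 directions over all genes depended on the processing. Of the genes called, 44.3% were higher in ZmCCT(+) in the edgeR fit. With DESeq2 size factors in the same edgeR test, a change of scaling alone, 48.2% were higher. The share was 64.4% when log2(TPM + 1) was tested with limma-trend, which differs in unit, transform and test. These 2 settings moved the median over all genes by 0.025 and 0.13. Relative to the median of all genes, 25 of the 27 genes were lower in each of these fits. The TPM test called 21 of the 27 genes lower and 2 higher, and of all tested genes 20% lower and 36.1% higher. With an assumed spread of 20% between replicates, 16 were lower and 0 higher, and 8.69% of tested genes were lower.

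**Figure D3:**
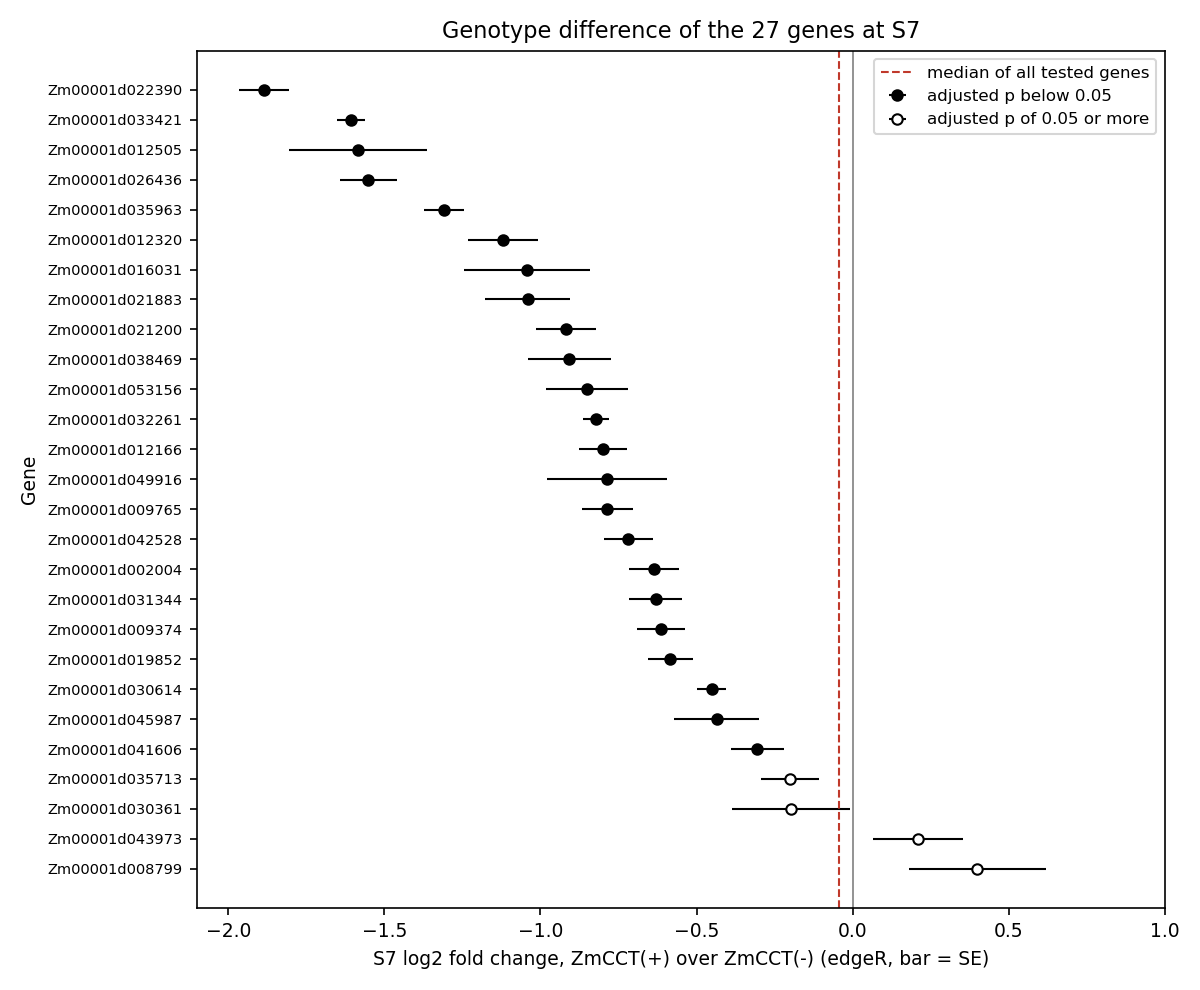
Log2 fold change of ZmCCT(+) over ZmCCT(-) at S7 for each of the 27 genes (edgeR, 3 libraries per group; bars are SE), with filled points at an adjusted p below 0.05 and the dashed line at the median of all tested genes. The 23 filled points all lie below 0, between -1.89 and -0.31, and the 2 points above 0 are open.

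The 4 genes not called at S7 had close or overlapping values. Zm00001d030361 (chromosome 1, 126093183 to 126094591), which had one of the widest turns between S3-4 and S5-6, had 3.20, 3.54 and 3.90 CPM in S7 ZmCCT(-) and 3.37, 3.40 and 2.73 CPM in ZmCCT(+) (log2 -0.20 ± 0.19 SE, edgeR adjusted p = 0.391). The other 3 and the called genes after them were singled out after their values were seen. Zm00001d035713 had 15.3, 13.3 and 14.7 CPM against 13.5, 12.1 and 12.9 CPM (log2 -0.20 ± 0.09 SE, edgeR adjusted p = 0.0646), and it passed without ZmCCT(-) replicate 2 (0.0333). Zm00001d043973, the gene nearest to both ratio limits, had 7.73, 5.73 and 4.82 CPM against 6.53, 7.47 and 7.33 CPM (log2 0.21 ± 0.15 SE, edgeR adjusted p = 0.221). It was called higher without ZmCCT(-) replicate 1 (edgeR adjusted p = 0.0278) and, with all libraries, by limma-trend on TPM (log2 0.40, adjusted p = 0.0306). Among the called genes, Zm00001d045987 lost its call without ZmCCT(-) replicate 1 or ZmCCT(+) replicate 3 (edgeR adjusted p = 0.0668 and 0.0691, from 0.00485). Limma-trend on TPM also lost the calls of Zm00001d045987 (adjusted p = 0.162) and Zm00001d041606 (0.275, from an edgeR adjusted p of 0.00146), and both were among the 7 calls lost with the assumed spread of 20% (adjusted p = 0.332 and 0.528).

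Zm00001d008799 (chromosome 8, 20773065 to 20776388) had a different course over the stages. Its controls were highest at S3-4, with 11.6, 10.2 and 10.8 CPM, and had 2.58, 1.79 and 1.93 CPM at S5-6 and 1.60, 1.94 and 1.55 CPM at S7. In ZmCCT(+) the values were 0.451, 0.956 and 0.664 CPM, then 7.21, 7.70 and 7.88 CPM, and 2.29, 2.20 and 2.44 CPM at S7. It is the one gene of the set whose highest group was S3-4 ZmCCT(-) rather than S5-6 ZmCCT(+). It is also the one whose S7 ZmCCT(+) libraries all lay above the controls, although the difference did not pass (log2 0.40 ± 0.22 SE, edgeR adjusted p = 0.114; 0.0189 with limma-trend on TPM).

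**Figure D4:**
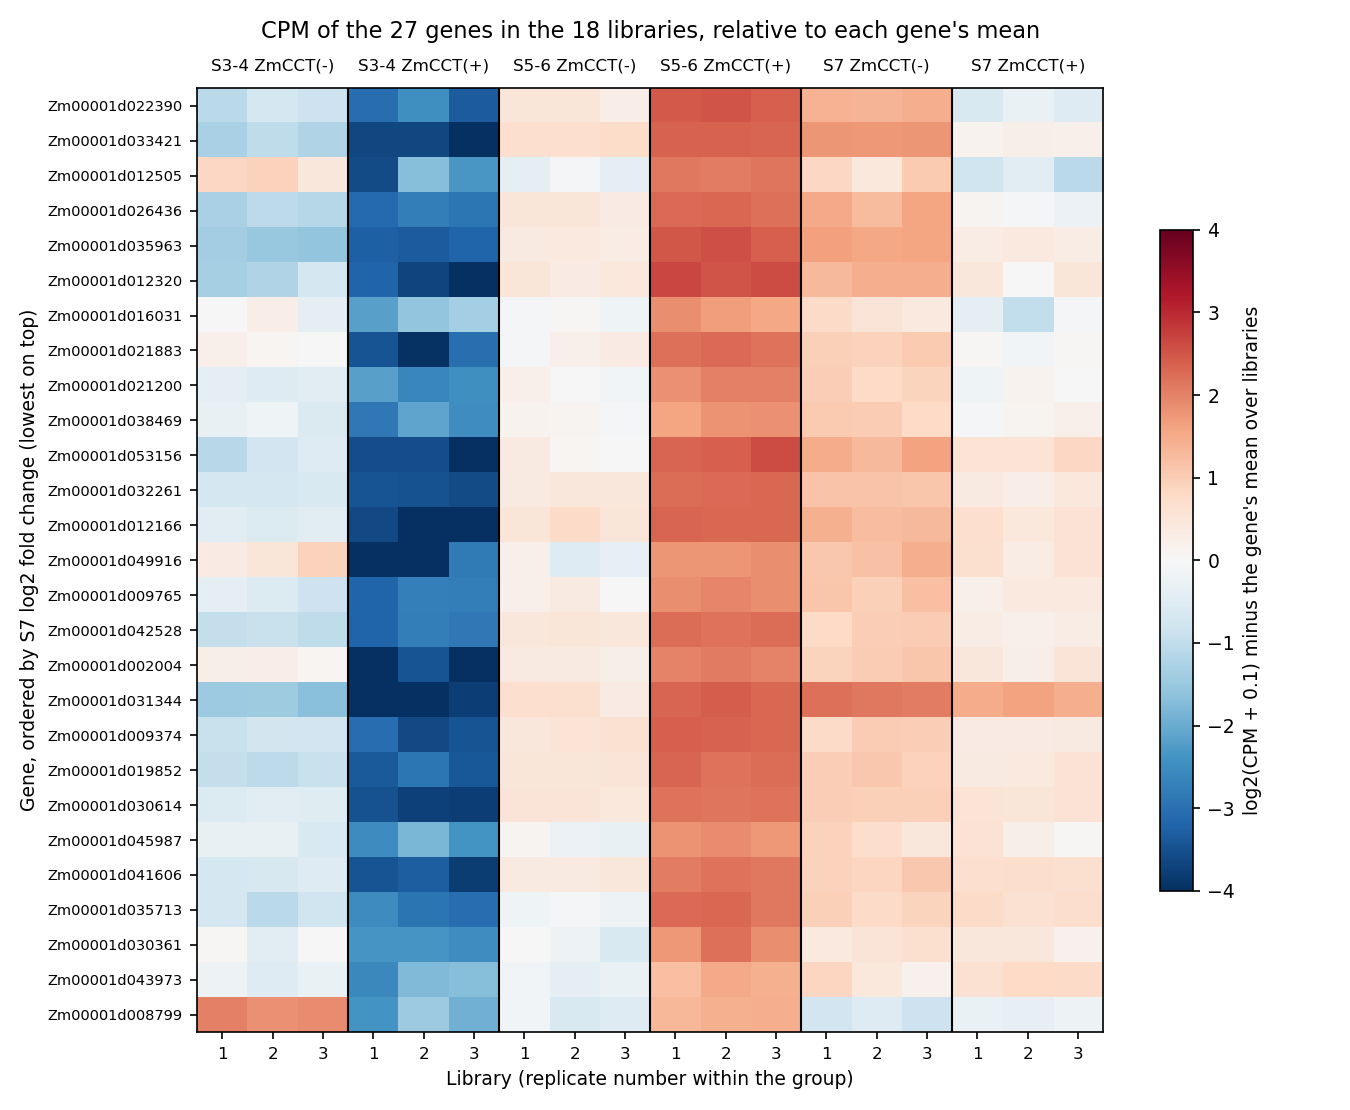
Log2(CPM + 0.1) of the 27 genes (rows, ordered by S7 log2 fold change) in the 18 libraries (columns, by stage and genotype), minus each gene's mean; colours stop at 4 in either direction. S3-4 ZmCCT(+) is the lowest group in 27 of 27 rows and S5-6 ZmCCT(+) the highest in 26, and Zm00001d008799 in the bottom row is highest in S3-4 ZmCCT(-). Among tested genes 45.8% were lowest in S3-4 ZmCCT(+) and 28.6% highest in S5-6 ZmCCT(+). The rule used both groups, so the counts of rows describe the choice.

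Genes that met one part of the rule alone were lower at S7 less uniformly. Of 2854 genes that met the S3-4 limits but not those of S5-6, 50.4% were called lower and 16.9% higher in ZmCCT(+) at S7, with a median log2 fold change of -0.19. Of 289 genes that met the S5-6 limits but not those of S3-4, 48.1% were lower and 22.1% higher, with a median of -0.41. The 57 genes with the opposite turn, higher at S3-4 and lower at S5-6, were split at S7, with 22 lower, 20 higher and a median of -0.02. These shares are set side by side without a test of their difference.

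Genes that met the rule only with looser limits were also mostly called lower at S7, while those added by a change of unit were not. With ratio limits of 2 in place of 3, the set grew to 228 genes. The 201 genes it added were called lower at S7 in 137 cases and higher in 9, with a median log2 fold change of -0.44. The 25 genes that met both ratios but had under 2 CPM in S3-4 ZmCCT(-) were lower in 17 cases and higher in 0, with a median of -1.08. A rule on TPM in place of CPM gave a weaker majority. Of the 9 tested genes it added, 4 (44.4%) were called lower and 0 higher, with a median of -0.82. Over all tested genes 30.4% were called lower and 24.1% higher.

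**Figure D5:**
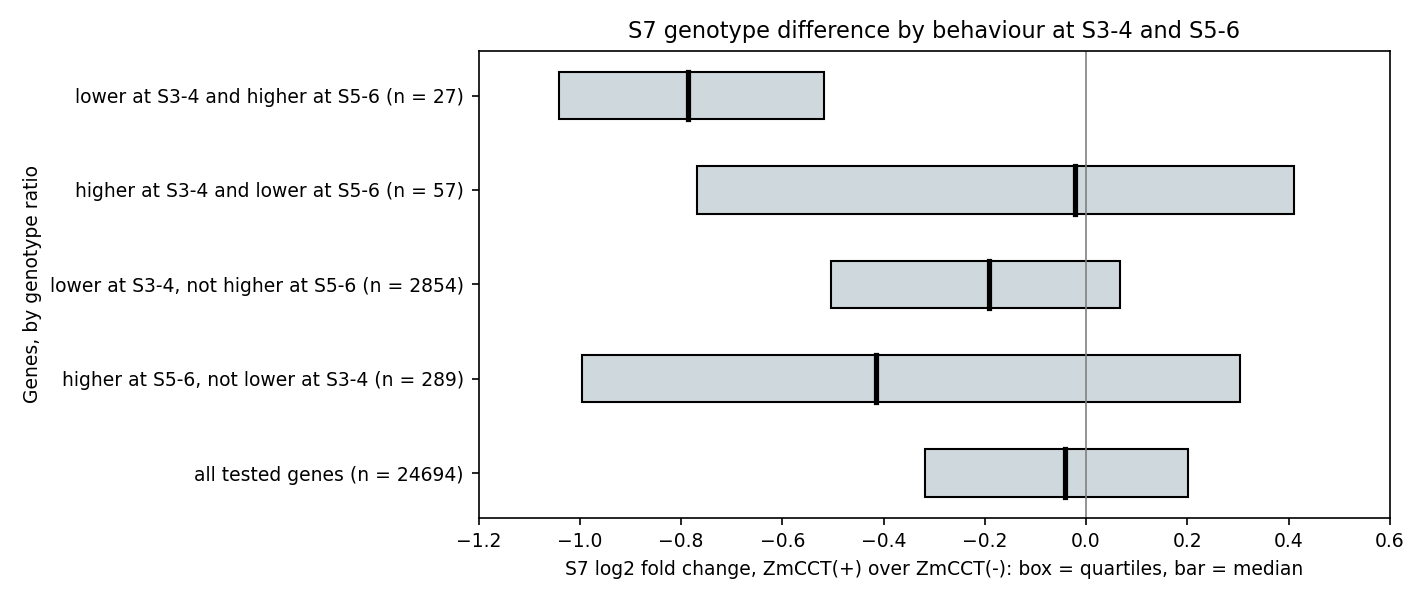
Quartiles (boxes) and medians (bars) of the S7 log2 fold change, ZmCCT(+) over ZmCCT(-), for genes grouped by their genotype ratios at S3-4 and S5-6. The median is -0.79 for the 27 genes, -0.41 and -0.19 for genes that meet one part of the rule, -0.02 for the opposite turn and -0.04 for all tested genes.

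The 27 genes were spread over the genome, and their spacing was not tested. They lie on all 10 chromosomes, with 6 on chromosome 8 (22.2%, against 9.13% of tested genes), 5 on chromosome 1 (18.5% against 15.5%) and 4 on chromosome 7 (14.8% against 8.02%). None lies next to another in gene order, and the closest pair, Zm00001d012166 and Zm00001d012320 on chromosome 8, is 140 listed genes apart. Zm00001d012505 on the same chromosome is 190 listed genes from the nearest gene of the set. Of the 54 direct neighbours, 34 had enough counts to test, 5 met the S3-4 part of the rule and none the S5-6 part. These few neighbours were not tested against the shares of all listed genes, 6.32% for the S3-4 part and 0.693% for the S5-6 part. None of the 27 overlaps another gene listed in the tables. Reads shared with a close paralog or with transcripts that are not listed were not assessed. The genes span 615 to 12812 bp, with a median of 2757 bp against 3501 bp for all tested genes, and 12 are on the plus and 15 on the minus strand. Positions follow the deposited tables. The sources used here do not name their genome build.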

How the data were processed

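RNA from whole maize anthers was sequenced in 18 libraries. The authors deposited 3 tables of raw counts per gene, 1 per stage. The authors also deposited 1 table per library with TPM, which sums to 1000000 in each, and with coverage, a signal that per the file headers is the read depth of a gene. Bowtie2, StringTie and DESeq2 are named in the submitters' processing notes; versions, genome build and strand setting were not stated in what was used here. Count columns were assigned by stage, genotype and replicate number, and 18 of 18 matched their own sample's coverage best (r from 0.965 to 0.996). All 18 replicate pairs differed beyond counting noise (chi-square per degree of freedom 1.57 to 3.03).

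CPM used column totals. For the S7 test, filterByExpr of edgeR 4.0.16 (R 4.3.3; minimum count 10, minimum total 15) kept 24694 genes, and TMM scaling and the robust quasi-likelihood F test were applied to 1 fit of 6 groups with 12 residual degrees of freedom. Benjamini-Hochberg adjustment covered all tested genes, and SE was taken as the size of the log2 fold change divided by the root of F. The estimated spread between replicates was 3.20%, so small differences pass. Alternatives used DESeq2 1.42.0 and limma 3.58.1. The replicate numbers were not shown to pair libraries.

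The genes and lists were chosen with earlier results of these data known. Of the gene lists and cell type markers set by symbol, 0 could be matched to an identifier. Genes were named for the smaller of their 2 ratios (6 genes), for CPM in S5-6 ZmCCT(+) or S3-4 ZmCCT(-) (4 each), for the 2 lowest S7 fold changes and for nearness to a limit; others were chosen after their values were seen.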

Additional observations from a re-analysis of the deposited data

How the results depend on the processing

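The count of genes lower at S7 stayed at 23 of 27 under DESeq2 size factors, the DESeq2 test, no filter, the stricter filter and the S7 libraries alone. It was 21 with limma-trend on TPM and 16 with the assumed spread of 20%, a setting chosen after seeing the data, and 8 with a 2-fold minimum. Leaving out 1 S7 library gave 22 to 24. The share of all tested genes called lower was 20.9% (no filter) to 32.0% (stricter filter) in the settings that gave 23. It was 27.2% to 27.7% without 1 S7 library. The count of genes higher, 0, became 2 with limma-trend on TPM and lay between 0 and 1 when 1 S7 library was left out. Over all genes, 13449 were called, with a range of 12420 to 12604 without 1 S7 library, 3280 with the assumed spread and 2207 with a 2-fold minimum. With a replicate block 23 of the 27 were lower and 13427 genes were called. The deviations of S7 libraries from their group mean were correlated between the genotypes. Same-numbered libraries gave r from -0.0343 to -0.00389 and different-numbered ones r from -0.0176 to 0.0298, so the numbers were not taken as pairs. The size of the set depends on its limits: 12 genes with 1 CPM added in place of 0.1, 228 with ratio limits of 2, 1 with limits of 5, 14 with a level limit of 5 CPM, 40 with 1 CPM and 34 from TPM, of which 24 were shared. Without 1 S3-4 or S5-6 library it was 27 to 31. No single gene turned its direction past the threshold. The S3-4 ZmCCT(+) levels rest on 4 to 233 counts per gene over 3 libraries, which limits the precision of the S3-4 ratios.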
